A study of Mus musculus with 4 samples.

Results

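Hedgehog signalling was examined through its ligands, receptors and Gli transcription factors on 4 arrays of mouse embryonic fibroblasts. The 10 genes Gli1, Gli2, Gli3, Ptch1, Smo, Gas1, Cdon, Shh, Ihh and Dhh were taken, with every probe set whose platform annotation gives exactly 1 symbol and that symbol is one of them. This gave 13 of the 12422 probe sets tested, or 10 of the 8251 genes named. All 4 arrays held RNA of cultured Men1 knockout fibroblasts of mixed FVB;129Sv background. By their labels, the cells of 2 arrays had been complemented with Men1 and those of the other two carried vector, and the groups are named by these labels throughout. The cells were grown in medium with 10% serum, seeded at 70% density and harvested after 24 h without any hedgehog ligand or inhibitor named in the labels. The labels do not say whether the replicates came from separate cultures or clones, so p-values reflect array-to-array spread alone, and that spread may be technical. The titles number the arrays 1 and 2 in each group, and what the number stands for is not given.

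Hedgehog ligands are secreted proteins that bind Patched at the primary cilium. Free Patched holds Smoothened in check, and bound Patched releases it, so that the balance of Gli2 and Gli3 shifts from repressor towards activator forms. Gli1 and Ptch1 are themselves transcribed in response, and in fibroblasts their mRNAs are commonly used to read pathway activity. Menin, the protein of Men1, has been reported to bind the Gas1 promoter with an arginine methyltransferase and to keep Gas1 low, which makes Gas1 and the Gli target genes a natural place to compare these cells.

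Cell identity and detection were checked before the members were compared. For Men1 itself the 1 probe set gave 18.8 and 22.5 after complementation, against 18.1 and 29.5 with vector. These signals overlap between the groups. Each array carried 19 bacterial and yeast control probe sets left unspiked. The brightest of them reached 25.9 and 27.4 with Men1, against 15.9 and 20.0 with vector, and a signal at or below it is called at control level. By this measure Men1 was at control level on both arrays labelled Men1-complemented and above it on both labelled vector, where the brightest control was lower. On the log2(signal + 16) scale Men1-complemented minus vector was -0.11 (SE 0.22) for Men1. The signals thus give Men1 no clear direction, and do not show the higher Men1 that the labels imply. Where the probe set lies relative to the deleted or the restored sequence is not known here, so every group direction rests on the labels alone. Of 12 fibroblast markers, 8 were above the control level on all 4 arrays and Thy1 on none. Over the whole array 58.1% of all probe sets, dim ones included, were above it on all 4 arrays. With each marker read from its brightest probe set, the fibroblast share is near that of the array. Above it on all 4 arrays were also 1 of 5 chondrocyte, 1 of 5 endothelial, 1 of 4 blood, 2 of 5 epithelial, 2 of 4 skeletal muscle and 5 of 6 neural markers measured. In such bulk RNA, fewer cells of a type and less RNA per cell cannot be told apart.

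Gas1 separated the arrays by replicate number and overlapped between the groups. Gli1 was above the control level on 1 array. Gli2, Gli3, Ptch1 and Smo were above it on all 4 arrays and differed little between them. None of the 13 probe sets passed the limma threshold, an adjusted p under 0.05 over all 12422, in either comparison. This was so for every probe set on the array (0.0% called in each comparison). At an unadjusted p under 0.05, limma placed 1 of the 13 lower with Men1 and 0 higher, where 1.88% of all probe sets met this, 0.91% higher and 0.966% lower.

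**Figure D1:**
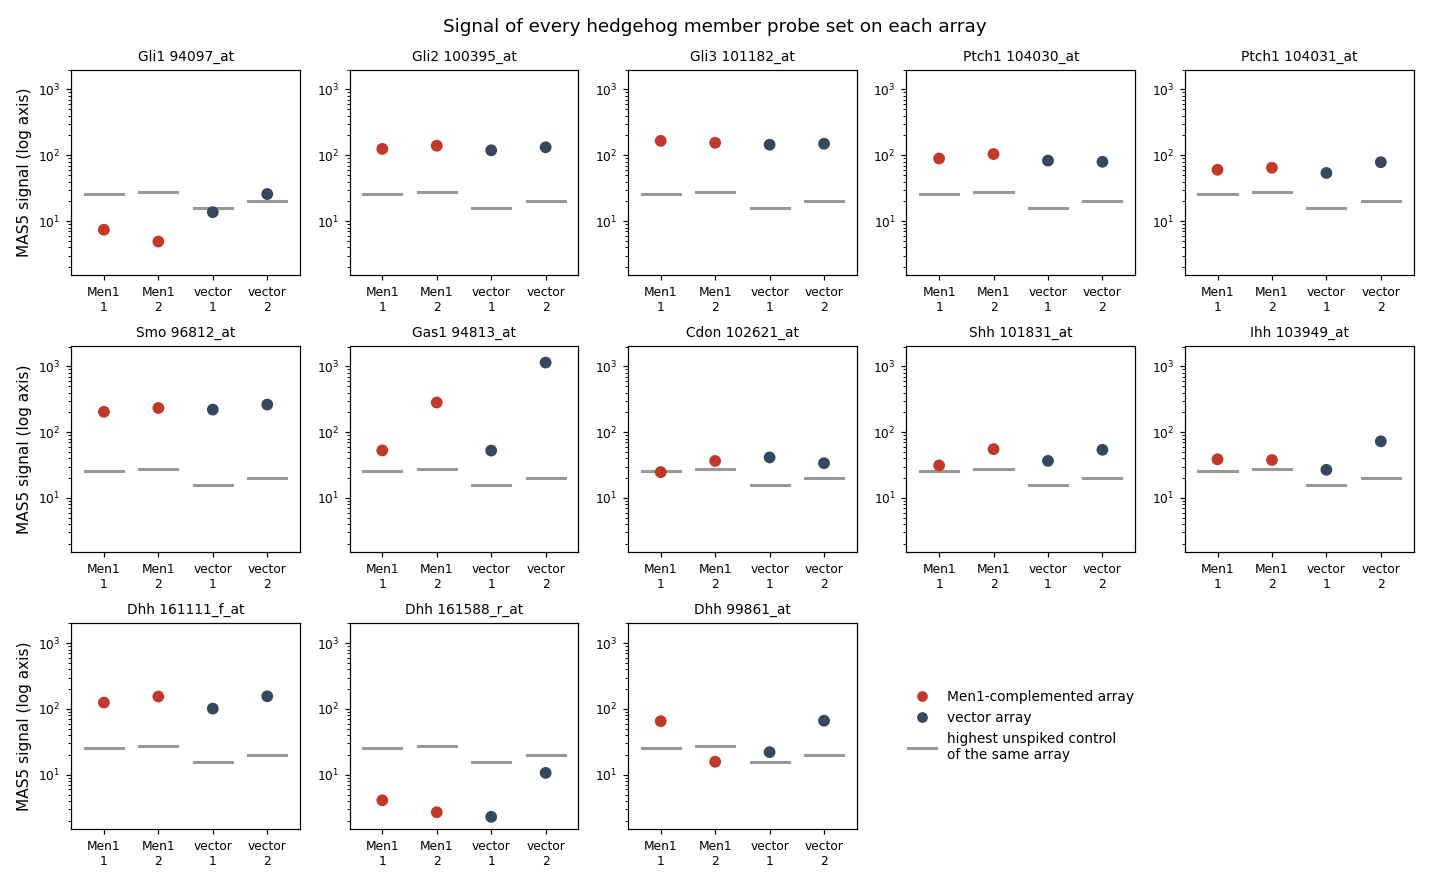
Signal of each of the 13 member probe sets on the 4 arrays (log axis), Men1-complemented arrays in red and vector arrays in dark blue, with the highest unspiked control of each array as a grey bar. Gas1 was high on both arrays numbered 2, at 281.9 and 1139.4, and Gli1 was above the control bar on 1 array.

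Gas1 encodes a membrane-anchored protein that binds hedgehog ligands as a co-receptor, and was first described as a gene raised in growth-arrested mouse fibroblasts. The windows below run from 250 bases before to 50 after the start of Gas1, the member with the widest range over the arrays and whose promoter menin has been reported to bind, and of Ptch1, the pathway's own target gene. Both are from RefSeq on GRCm38.p6, on the minus strand, at chr13:60177486-60177785 for Gas1 and chr13:63565686-63565985 for Ptch1. Capitals mark the CCAAT box, with the letters CCAAT on either strand. They also mark the GC box, GGGCGG on either strand, and the marked stretches do not overlap.
Gas1: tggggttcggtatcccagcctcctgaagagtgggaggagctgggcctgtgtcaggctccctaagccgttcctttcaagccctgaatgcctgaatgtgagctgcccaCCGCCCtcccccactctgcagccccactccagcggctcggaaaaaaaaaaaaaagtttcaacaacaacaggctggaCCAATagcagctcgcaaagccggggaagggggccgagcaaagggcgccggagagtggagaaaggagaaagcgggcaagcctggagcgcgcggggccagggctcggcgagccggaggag
Ptch1: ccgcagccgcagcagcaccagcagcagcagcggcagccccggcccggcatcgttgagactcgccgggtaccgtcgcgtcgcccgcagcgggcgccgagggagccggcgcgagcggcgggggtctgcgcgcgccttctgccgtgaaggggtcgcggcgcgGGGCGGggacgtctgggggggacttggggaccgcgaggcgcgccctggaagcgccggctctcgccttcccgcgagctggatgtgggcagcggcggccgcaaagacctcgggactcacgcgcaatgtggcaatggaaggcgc
The Gas1 window held 1 CCAAT box and 1 GC box, and the Ptch1 window 1 GC box. Of 32851 windows of this length, 37.4% hold a CCAAT box and 35.7% a GC box on either strand. The Gli consensus GACCACCCA, searched on both strands, is in 0.253% of windows and in 0 of the 8 member genes that have one, which says only that these letters are not in these windows.

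The Gas1 signal was 52.8 and 281.9 on Men1-complemented replicates 1 and 2, and 52.5 and 1139.4 on vector replicates 1 and 2. The groups overlap, both arrays numbered 1 are low and both numbered 2 are high. The mean was 167 ± 162 with Men1 and 596 ± 769 with vector (SD, n = 2 each). Within replicate 1 the Men1-complemented signal was 1.01 times that with vector, and within replicate 2 it was 0.247 times. On the log2(signal + 16) scale, used for all differences below and understating the fold of dim probe sets, Men1-complemented minus vector was -0.97 with a standard error (SE) of 1.48. The limma adjusted p was 1. Without vector replicate 2 the difference was 1.06, and without Men1-complemented replicate 1 it was 0.08, so its direction rests on single arrays. Whether the group difference itself differs between the replicate numbers cannot be tested, since 4 arrays leave no residual spread for it.

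By replicate number, Gas1 was 5.34 times as high in replicate 2 as in replicate 1 of the Men1-complemented cells, and 21.7 times with vector. With group as the other term of the fit, replicate 2 minus replicate 1 was 3.10 (SE 0.48, 95% interval 1.88 to 4.31). This was the third highest of 12422 differences, with an unadjusted limma p of 0.00117 and an adjusted p of 0.356. It passed (limma adjusted p = 0.0285) when probe sets above the controls on fewer than 2 arrays were left out as dim, with 8412 tested, 11 of the 13 members among them, and 31 called (0.369%). That fit has 1 residual degree of freedom and leans on the spread of all other probe sets. At an unadjusted limma p under 0.05, Gas1 was the 1 of 13 member probe sets called by replicate number, where 9.06% of all probe sets were.

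The rule for likeness took the 5 genes whose signal profile over the 4 arrays, centred on its mean, lay nearest to Gas1 by Euclidean distance on the log2 scale. They were Shox2 (distance 0.625), Igfbp2 (0.908), Pdpn (1.15), Postn (1.201) and Pax2 (1.40). Shox2, a homeobox factor, read 34.3 and 179.4 with Men1, against 29.0 and 465.6 with vector. Igfbp2, a secreted binding protein of insulin-like growth factors, read 72.1 and 682.8 with Men1, against 56.0 and 1305.3 with vector. Both repeat the Gas1 order, lowest on the arrays numbered 1 and highest on vector replicate 2, which follows from picking them by likeness to Gas1. Pdpn, Postn and Pax2 were above the controls on 3, 2 and 3 arrays, so their low ends are less certain.

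**Figure D2:**
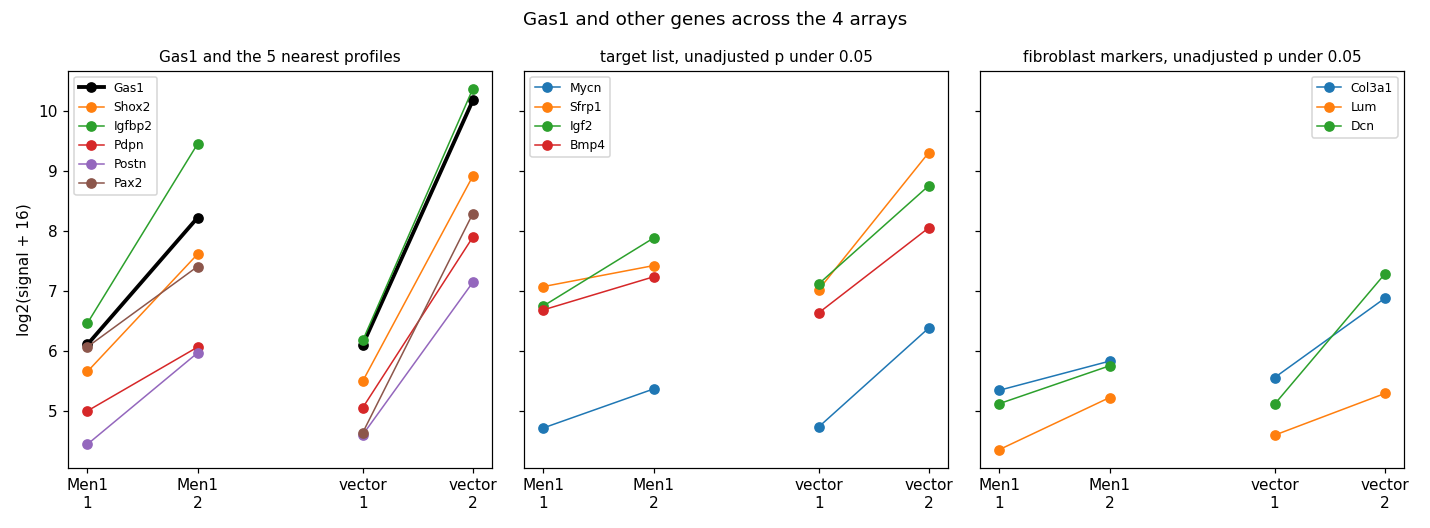
Signals as log2(signal + 16) on Men1-complemented replicates 1 and 2 and vector replicates 1 and 2, for Gas1 and its 5 nearest profiles (left), the 4 target genes (middle) and the 3 fibroblast markers (right) at an unadjusted p under 0.05 by replicate number. Every gene shown is higher on the array numbered 2 than on that numbered 1 in both groups, and Gas1 ends at 1139.4 signal units on vector replicate 2. The genes beside Gas1 were picked for likeness to it or for their replicate difference, so the shared direction follows from the choice.

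Cdon, an immunoglobulin-family co-receptor that works beside Gas1, did not share this pattern. Its signal was 24.7 and 36.5 with Men1, against 41.3 and 33.7 with vector, and the first of these was at control level. The groups overlap, and the differences were -0.21 (SE 0.22) by group and 0.08 (SE 0.23) by replicate number. With quantile normalization in place of the deposited scaling the replicate difference became -0.07.

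The receptor Ptch1 was measured by a pair of probe sets that did not give the same direction. The brighter one read 89.4 and 104.5 with Men1, against 83.1 and 79.8 with vector, so that the groups do not overlap and Men1-complemented cells were higher by 0.21 (SE 0.18, 95% interval -0.26 to 0.68). The dimmer one read 60.3 and 64.7 with Men1, against 53.9 and 78.6 with vector, which overlap (-0.05, SE 0.22, 95% interval -0.62 to 0.52). By replicate number the brighter differed by 0.07 (SE 0.20) and the dimmer by 0.26 (SE 0.21), and the first of these turned to -0.05 with quantile normalization. Neither comparison passed for either probe set.

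Smo, the membrane transducer that Patched controls, read 203.8 and 232.7 with Men1, against 220.0 and 262.3 with vector. The groups overlap, and the difference was -0.13 (SE 0.19, 95% interval -0.63 to 0.37). It was 0.21 (SE 0.19) by replicate number, with both arrays numbered 2 above both numbered 1.

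The Gli factors were measured by 1 probe set each. Gli1, the factor transcribed when the pathway is active, read 7.4 and 4.9 with Men1, against 13.7 and 25.8 with vector. Both Men1-complemented signals and vector replicate 1 were at control level, and vector replicate 2 was above its highest control of 20.0. The groups do not overlap, and the fitted difference of -0.67 (SE 0.24) sets signals against each other of which 3 of 4 are not above background, so it is no measured size. It was -1.50 with a pseudocount of 1. The unadjusted limma p was 0.0372 and the adjusted p 1, and this was the 1 member probe set counted above. Because the controls of the Men1-complemented arrays reached above the vector signals, no fold is given. Without single arrays the difference lay between -0.92 and -0.43. Each of these fits leaves 1 array in a group, so only the difference is given here.

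Gli2, the main activator in mouse fibroblasts, read 125.1 and 140.0 with Men1, against 119.1 and 132.4 with vector. Gli3, which acts mostly as a repressor, read 165.6 and 155.1 with Men1, against 145.0 and 149.8 with vector. Both were above the controls on all 4 arrays, with groups that overlap for Gli2 and do not for Gli3. Group differences were 0.07 (SE 0.18, 95% interval -0.40 to 0.53) for Gli2 and 0.11 (SE 0.17, 95% interval -0.33 to 0.55) for Gli3. By replicate number they were 0.14 (SE 0.19) and -0.02 (SE 0.20), so both factors differed by less than the SE.

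The ligands were low or uneven between probe sets. Shh, the ligand of limb and neural tube, read 31.2 and 55.2 with Men1, against 36.6 and 53.9 with vector. All 4 were above the controls, the groups overlap, and both arrays numbered 2 were above both numbered 1. Differences were -0.06 (SE 0.29) by group and 0.50 (SE 0.20) by replicate number, with an unadjusted limma p of 0.0508 for the second and an adjusted p of 0.551.

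Ihh, the ligand of growth plate cartilage, read 38.7 and 37.8 with Men1, against 26.8 and 72.5 with vector. Vector replicate 2 was the high array and vector replicate 1 the low one, with the Men1-complemented arrays between them. The differences were -0.18 (SE 0.38) by group and 0.51 (SE 0.31) by replicate number, neither past the threshold. The 5 nearest profiles by the same distance were those of Vdac1 (0.026), Hoxb8 (0.031), Cryge (0.068), Gm34703 (0.068) and Tmem268 (0.076), of which the Vdac1 probe set was above the controls on 1 array.

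Dhh, the ligand made by Sertoli and Schwann cells, had 3 probe sets. Of these, 1 carries the suffix _f, for probes that can match a family of related sequences, and 1 the suffix _r, for relaxed design rules. The _f probe set read 125.2 and 154.6 with Men1, against 101.3 and 155.9 with vector (0.13, SE 0.26 by group, and 0.41, SE 0.20 by replicate number). The _r probe set was at control level on all 4 arrays. The third, with no such suffix, read 65.3 and 15.8 with Men1, against 22.1 and 66.4 with vector, and 3 of these were above the controls. The probe sets of Dhh thus did not give the same order of arrays, and that of the third followed neither the groups nor the numbers.

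**Figure D3:**
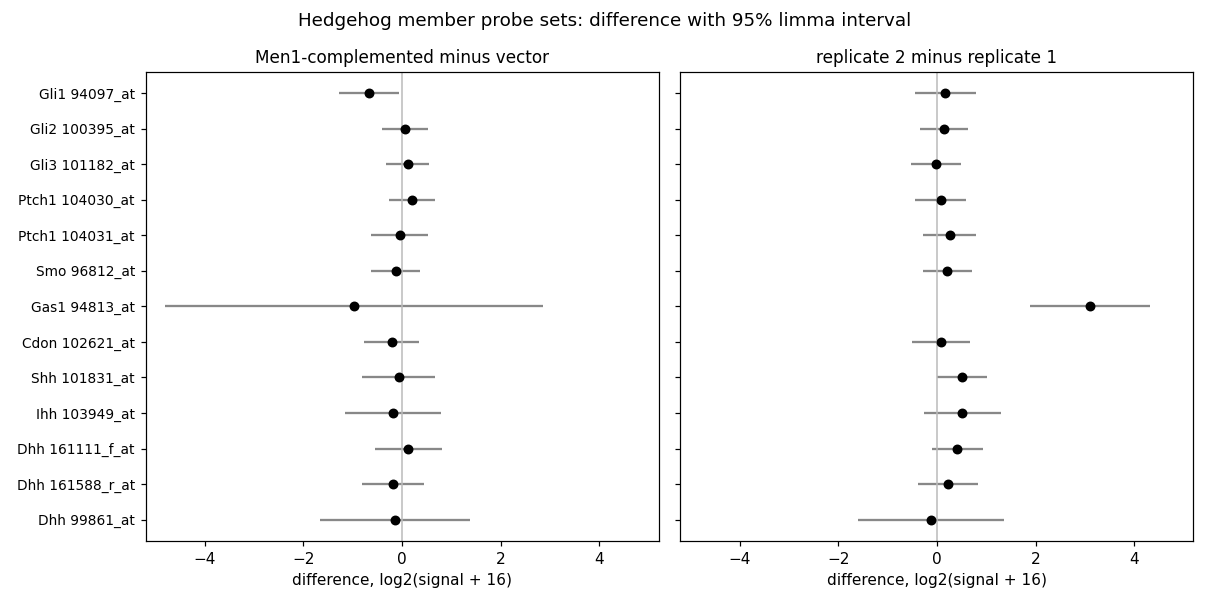
Difference of each of the 13 member probe sets on the log2(signal + 16) scale with its 95% limma interval, Men1-complemented minus vector (left) and replicate 2 minus replicate 1 (right). By group Gas1 has the widest interval, -4.81 to 2.86, and by replicate number it is the point at 3.10.

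Over the 13 probe sets, 4 were higher and 9 lower with Men1, where 47.2% of all probe sets were higher. The median difference was -0.13 for the members and -0.01 over all 12422. Groups did not overlap for 2 probe sets that were higher (Gli3 and the brighter Ptch1) and 1 that was lower (Gli1), or 23.1%, where 22.1% of all probe sets did not overlap, 10.4% higher and 11.7% lower. This share is near that of the whole array. Men1-complemented was above vector in 9 of the 13 within replicate 1 and in 5 within replicate 2, and the sign was the same in both for 5.

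By replicate number, 11 of the 13 were higher and 2 lower in replicate 2, where 60.8% of all probe sets were higher. The median was 0.21 for the members and 0.06 over all probe sets. The arrays numbered 2 were both above those numbered 1 for 6 probe sets and both below for 0, or 46.2%, where 44.7% of all probe sets separated this way and 28.7% did so upwards. At an unadjusted limma p under 0.05 the split over all probe sets was 722 higher and 403 lower with the deposited scaling, and 526 higher and 622 lower after quantile normalization. After quantile normalization, 9 members were higher and 4 lower. Apart from Gas1, the members' replicate differences lay between -0.12 and 0.51. Within the Men1-complemented pair 8 of 13 were higher in replicate 2 and within the vector pair 11, where 50.7% and 63.8% of all probe sets were.

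**Figure D4:**
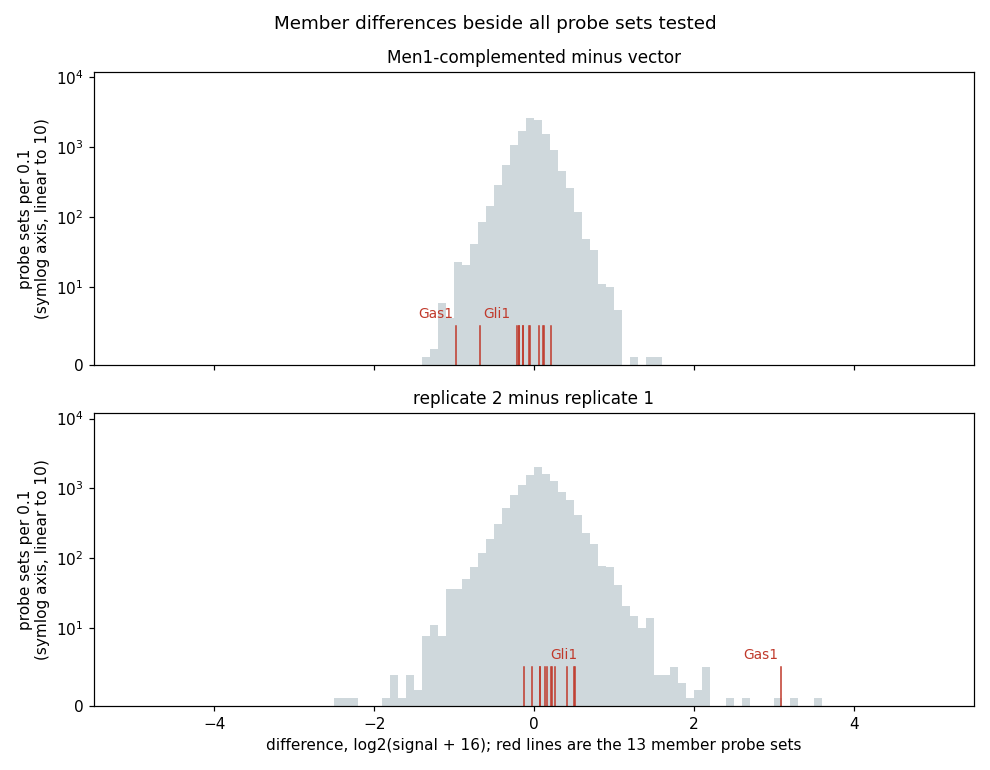
Number of probe sets per 0.1 of difference in log2(signal + 16) over all 12422 (grey bars, axis linear to 10 and logarithmic above), with the 13 members as red lines, for Men1-complemented minus vector (top) and replicate 2 minus replicate 1 (bottom). Gas1 at 3.10 lies apart from the other members in the lower panel, and at -0.97 it is the lowest member in the upper one.

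Other genes of the pathway were taken from a list by role, of which 36 of 62 genes had a single-symbol probe set, and each was read from its brightest one. Genes of ligand release and of transduction, such as Disp1 and Kif7, were not analysed here. By group, 18 of the 36 were higher and 18 lower with Men1 (median -0.01), and 0 met an unadjusted limma p under 0.05 in either direction. The groups did not overlap for 3 of the 36 higher with Men1 and 0 lower, where this was so for 10.4% of all probe sets higher and 11.7% lower. All 3 are in the target list. They were Snai1, a transcription factor of mesenchymal cells, at 163.3 and 213.3 with Men1, against 133.5 and 139.5 with vector (0.41, SE 0.20), and Bcl2 and Nr2f2, differing by 0.16 (SE 0.18) and 0.19 (SE 0.19). The last pair was chosen after its values were seen. A second Bcl2 probe set above the controls on all 4 arrays overlapped between the groups (0.06, SE 0.37). Nr2f2 was read by a probe set with the suffix _r, for relaxed design rules, and its other probe set was at control level on all 4 arrays.

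Among genes of ligand reception, Lrp2, a large endocytic receptor, differed by 0.30 (SE 0.30), and Gpc3, a glypican that competes for ligand in mouse, by -0.53 (SE 0.73). Gpc3 read 85.9 and 83.6 with Men1, against 51.4 and 296.9 with vector, so that vector replicate 2 alone stood high. Among 11 measured regulators of Gli proteins, 6 were higher and 5 lower with Men1. These included the kinase subunits Prkaca (-0.31, SE 0.25) and Prkar1a (-0.10, SE 0.23), the casein kinase Csnk1a1 (-0.06, SE 0.19), and Stk36, at control level on all 4 arrays. The cilium genes Ift88, Ift27, Tulp3 and Kifap3 differed by -0.04 (SE 0.43), -0.27 (SE 0.26), 0.0041 (SE 0.19) and 0.15 (SE 0.27). A second, dimmer Ift27 probe set, above the controls on all 4 arrays, had the other sign (0.05, SE 0.21). Read from their brightest probe sets, all 7 measured cilium genes were above the controls on all 4 arrays. Of all probe sets, dim ones included, 58.1% were. A second, dimmer Kifap3 probe set was above the controls on 0 arrays.

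Of 16 measured genes that Gli factors are known to raise in some tissues, 8 were higher and 8 lower with Men1, with a median of -0.02. The cell cycle genes Ccnd1 and Foxm1 differed by 0.13 (SE 0.19) and 0.01 (SE 0.23), and Foxf2 was at control level on all 4 arrays. A second, dimmer Foxm1 probe set read 616.9 and 490.4 with Men1, against 483.0 and 393.7 with vector, which do not overlap (0.32, SE 0.22). By replicate number, 4 of the 16 were higher at an unadjusted limma p under 0.05 and 0 lower, where 5.81% of all probe sets were higher and 3.24% lower. The 4, chosen here for this and not by the naming rule, were Igf2, Sfrp1, Bmp4 and Mycn.

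Igf2, an insulin-like growth factor, read 91.4 and 219.3 with Men1, against 122.5 and 415.2 with vector, and replicate 2 minus replicate 1 was 1.38 (SE 0.22, limma adjusted p = 0.382). Sfrp1, a secreted Wnt inhibitor, read 118.3 and 155.1 with Men1, against 113.6 and 616.5 with vector (1.32, SE 0.47). Bmp4, a morphogen, read 86.6 and 134.3 with Men1, against 83.1 and 249.0 with vector (0.98, SE 0.27). As for Gas1, both arrays numbered 2 were above both numbered 1 for each of these, and vector replicate 2 was the highest. Mycn, a proto-oncogene, was above the controls on vector replicate 2 only, at 67.2. Igf2 and Bmp4 each have a second, dimmer probe set. That of Igf2 was at control level, and that of Bmp4 read 21.0 and 19.1 with Men1, against 16.5 and 89.6 with vector (0.81 by replicate number). None passed after adjustment over all probe sets.

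Fibroblast markers were compared over the same arrays. By group, 5 of the 12 were higher and 7 lower with Men1, where 47.2% of all probe sets were higher. The groups did not overlap for 0 of them higher and 2 lower, where 10.4% of all probe sets did so higher and 11.7% lower. Of the 12, 9 were higher and 3 lower in replicate 2, where 60.8% of all probe sets were higher. At an unadjusted limma p under 0.05, 3 were higher and 0 lower, where 5.81% of all probe sets were higher and 3.24% lower. Dcn, a matrix proteoglycan, read 18.7 and 37.7 with Men1, against 18.5 and 139.3 with vector (1.40, SE 0.39), Col3a1 differed by 0.90 (SE 0.27) and Lum by 0.78 (SE 0.20). Dcn and Col3a1 were at control level on Men1-complemented replicate 1, and Lum was above the controls on vector replicate 2 only. The summed signal of the 12 was 11338 and 10149 with Men1, against 10053 and 12170 with vector, and was carried mostly by Col1a1. Of 6 neural markers, 1 was higher and 5 lower in replicate 2, where 60.8% of all probe sets were higher. For 4 of the 6, both arrays numbered 2 were below both numbered 1. Of all probe sets, 44.7% separated by number, 28.7% upwards and the rest downwards. The summed signal of the 6 neural markers was 4154 and 3345 with Men1, against 4416 and 2782 with vector. Sox2, a factor of neural progenitors, read 881.9 and 562.2 with Men1, against 928.2 and 505.2 with vector (-0.75, SE 0.20). Nes, an intermediate filament of the same cells, differed by -0.47 (SE 0.21). The Sox2 probe set carries the suffix _r, and that of Tubb3, another neural marker, the suffix _f. The neural counts and sums, here and in the check of detection, include both. Of the fibroblast markers, Col1a2 was likewise read by a probe set with suffix _r. Among the other markers, the muscle actin Acta1 differed by -0.80 (SE 0.19) and the keratin Krt18, above the controls on 1 array, by 0.79 (SE 0.20). In replicate 2, 1 of the 4 muscle markers was higher and 3 lower. Of the 5 epithelial markers 4 were higher and 1 lower, where 60.8% of all probe sets were higher. The muscle markers Myod1, Myog and Des differed by 0.32, -0.06 and -0.12 by replicate number. The epithelial markers Krt8, Krt19, Cdh1 and Epcam differed by -0.01, 0.0039, 0.47 and 0.16. By group, 0 of the 4 muscle markers were higher and 4 lower with Men1, where 47.2% of all probe sets were higher. Myog read 23.7, at control level, and 28.1 with Men1, against 68.1 and 53.3 with vector. Its groups do not overlap (-0.87, SE 0.20). None of these passed after adjustment, and the part of the marker differences in that of Gas1 was not tested.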

How the data were processed

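Values deposited by the authors are linear intensity per probe set. The submitters' processing notes name Affymetrix Expression Console and MAS5, and their versions and the scaling target are not given in the sources used here. Their mean after trimming 2% at each end was 150.08, 150.08, 150.08 and 150.07, so arrays were scaled to 1 total, which cannot show a change in total RNA. Of 12488 probe sets, 66 controls were left out and 12422 tested. Of these 10833 had 1 symbol, 396 several and 1193 none, and names came from the platform annotation, updated by gene ID (10817 found in a RefSeq gene table of GRCm38.p6).

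Signals were analysed as log2(signal + 16) in limma (version 3.58.1, run under R 4.3.3) by lmFit, then eBayes. Tests were two-sided, p-values were adjusted by Benjamini and Hochberg's method, and 0.05 was the threshold. The group fit had no other term, and the replicate comparison added group as a term. With 2 against 2 arrays the smallest p of an exact permutation test is 0.333, so none was run. Precision is limited by having 4 arrays, and the median SE was 0.22 by group and 0.21 by replicate number. The fits were tested on simulated data. Alternatives were a pseudocount of 1, quantile normalization, leaving out dim probe sets, a replicate block, leaving out each array, and the mean over a gene's probe sets. Members and lists were chosen with earlier results of these data known. The text names all 10 members, of each role list the 2 genes with the smallest group p and the 2 with the highest mean signal, and the nearest profiles of member probe sets above the controls on all arrays that range over more than 1 on the log2 scale. Genes outside this rule are marked as chosen after their values were seen, and every cell type marker named in the text was likewise chosen after its values were seen.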

Additional observations from a re-analysis of the deposited data

How the results depend on the processing

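Counts at an adjusted limma p under 0.05 were 0 by group in every setting run, for all probe sets, the members and the pathway list (lowest adjusted p 0.576, without vector replicate 1). At an unadjusted p under 0.05 the group count over all probe sets was 233, against 121 with dim probe sets left out and 121 to 1031 without single arrays. For members it was 1, against 0 without dim probe sets, where Gli1 is not tested, and 0 to 2 without single arrays. For the pathway list it was 0, against 1 to 6 without single arrays. With replicate number as a block the counts were 297, 1 and 1. Deviations of same-numbered arrays correlated at 0.258 over probe sets, and with 2 pairs the numbers are not shown to pair the arrays. By replicate number, without dim probe sets, 31 probe sets and 1 member (Gas1) passed after adjustment. With no group term, 2 of the 13 member probe sets were at an unadjusted limma p under 0.05, as were 1491 of all 12422. With the group term these counts were 1 and 1125.

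Without single arrays the group difference changed sign for Gas1 (-3.01 to 1.06), Shh (-0.36 to 0.23), Ihh (-0.71 to 0.34), Gli2 (-0.0050 to 0.14), the dimmer Ptch1 (-0.27 to 0.17) and the Dhh probe sets with suffix _f (-0.15 to 0.40), with suffix _r (-0.46 to 0.0833) and with none (-0.82 to 0.54). By replicate number, quantile normalization turned the brighter Ptch1 to -0.053 and Cdon to -0.0746. The other 89 of 102 group values and 47 of 50 replicate values of member probe sets kept their direction and side of the threshold. A lone array of a group was assumed to vary like the others. The causes were not tested.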

Other observations

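Within the Men1-complemented pair alone, which has 1 array of each number and no test, replicate 2 minus replicate 1 was 2.11 for Gas1, 0.59 for Shh, 0.18 for Smo and -0.02 for Ihh. Within the vector pair alone it was 4.08 for Gas1, 0.41 for Shh, 0.24 for Smo and 1.05 for Ihh. These values were chosen after the data were seen. Gas1, Shh and Smo are among 6 of the 13 probe sets higher in replicate 2 of both groups. The others are Gli2, the dimmer Ptch1 and the Dhh probe set with suffix _f. Ihh was higher in replicate 2 of the vector cells only. Of all probe sets, 50.7% were higher in replicate 2 of the Men1-complemented pair and 63.8% in that of the vector pair. At or above the Gas1 difference there were 7 probe sets in the Men1-complemented pair and 3 in the vector pair, Gas1 included.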
